A study of Mus musculus with 6 samples.

Results

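The genes of transforming growth factor β (TGF-β), activin, bone morphogenetic protein (BMP) and growth differentiation factor (GDF) signaling were examined in epididymal white adipose tissue (eWAT), a visceral fat depot of male mice. They were chosen by name, as the protein-coding genes called Tgfb1 to Tgfb3, Tgfbr1 to Tgfbr3, Bmp, Bmpr, Gdf, Inha, Inhb, Acvr, Smad, Fst, Fstl, Grem, Nog, Chrd or Mstn. The rule found 60 of the 54532 genes listed, among 22046 protein-coding genes. They comprised 29 ligands and ligand subunits, 12 receptors, 4 secreted BMP antagonists, 5 genes of the follistatin family and 8 SMAD proteins. The other 2 genes, Bmp1 and Bmp2k, carry a BMP name but encode a protease and a kinase. The RNA came from C57BL/6 males, 6 to 10 weeks old when obtained, and no engineered allele is named for either group. The 3 cachectic mice carried a subcutaneous graft of Lewis lung carcinoma (LLC), a mouse lung cancer line, and the 3 control mice are labeled only as controls. The tissue was harvested on day 21, and cachexia was defined by weight loss in the tumor-bearing mice, so the tumor and the wasting cannot be told apart.

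In this family, dimeric ligands bind a complex of type I and type II receptor kinases. TGF-βs and activins signal through SMAD2 and SMAD3, and BMPs signal through SMAD1, SMAD5 and SMAD9. Both branches share SMAD4 as a partner. SMAD6 and SMAD7 are inhibitors inside the cell, while noggin, chordin and follistatin trap ligands outside it. In fat, TGF-β and activin A are known to restrain the differentiation of adipocyte progenitors, BMP4 and BMP7 are known to promote it, and ALK7 (Acvr1c) is a type I receptor enriched in mature adipocytes.

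Total counts per mouse lay between 14928766 and 18855546, and every cachectic mouse had fewer than every control mouse. The adipocyte markers Adipoq and Plin1 were abundant in all 6 mice. Of the 8 adipocyte markers, Cidec and Pnpla2 were higher in cachectic mice and Lep was 8.79-fold lower, while Plin1 was below the controls in every cachectic mouse without a call (log2 fold change -1.44, edgeR, Benjamini-Hochberg adjusted p = 0.0570). The sum of 8 epididymis epithelium markers was 4.11, 1.09 and 1.42 CPM (counts scaled to a common normalized library size) in controls. In cachectic mice it was 1.34, 0.737 and 0.721 CPM, with Defb48 at 0 in all mice. Control 1 was the highest mouse here, and also for Tgfb2, Inhba, Bmp7 and Bmpr1b below, and a link between them was not tested. The sum of 8 endothelial markers was 1427 to 1547 CPM in controls and 1972 to 3234 CPM in cachectic mice, and 3 of them were higher and 0 lower. The 8 neutrophil markers summed to 27.9 to 47.9 CPM in controls and 246 to 639 CPM in cachectic mice (7 of 7 tested higher, Ly6g at 0 in the controls), and the 6 erythroid markers to 252 to 451 and 1332 to 2851 CPM (5 of 5 tested higher). The 6 smooth muscle and pericyte markers went the other way, from 830 to 1161 CPM down to 385 to 685 CPM (1 of 6 lower). Of the 8 fibroblast and progenitor markers, 1 was higher and 2 were lower, with sums of 817 to 949 and 687 to 821 CPM. Sums overlapped between the groups for 8 adipocyte (15677 to 28514 CPM over all mice), 7 mesothelial (190 to 418 CPM), 8 macrophage (1142 to 1785 CPM), 8 lymphocyte (4.72 to 18.1 CPM) and 6 skeletal muscle markers (7.12 to 58.8 CPM, Myh4 at 0). The part of these markers in the results below was not tested. In bulk tissue, fewer cells of a type and less RNA per cell cannot be told apart.

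Of the 60 genes, 45 had enough counts to be tested in edgeR (quasi-likelihood F test), and 13 of these had an adjusted p-value under 0.05 (Benjamini-Hochberg over all 16003 genes tested). Inhbb, Smad9 and Tgfbr2 were among the 4 genes that rose in cachectic mice, against a background of 9.0% of all genes tested. Tgfb2, Tgfb3, Gdf10, Bmp7, Bmpr1a, Bmpr1b, Fstl1, Bmp1 and Bmp2k fell, 9 genes against a background of 8.63%. The called share was 28.9% of the tested members and 17.6% of all tested genes. The 28.9% and the 9 that fell include Bmp1 and Bmp2k, which are not ligands, receptors, secreted BMP antagonists, follistatin family genes or SMADs. The median log2 fold change of cachectic over control mice was -0.06 for the 45 members and -0.00 for all genes, with 22 members above 0 and 23 below. In 21 members the values of the groups did not overlap, 6 higher and 15 lower. That is 46.7% of the members against 40.5% of all tested genes, where 20.4% were higher and 20.1% lower without overlap. With 3 mice per group an exact two-sided permutation test cannot give a p-value under 0.1. All 13 called members reached that value. It only restates that their groups do not overlap, as in 40.5% of all tested genes.

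**Figure D1:**
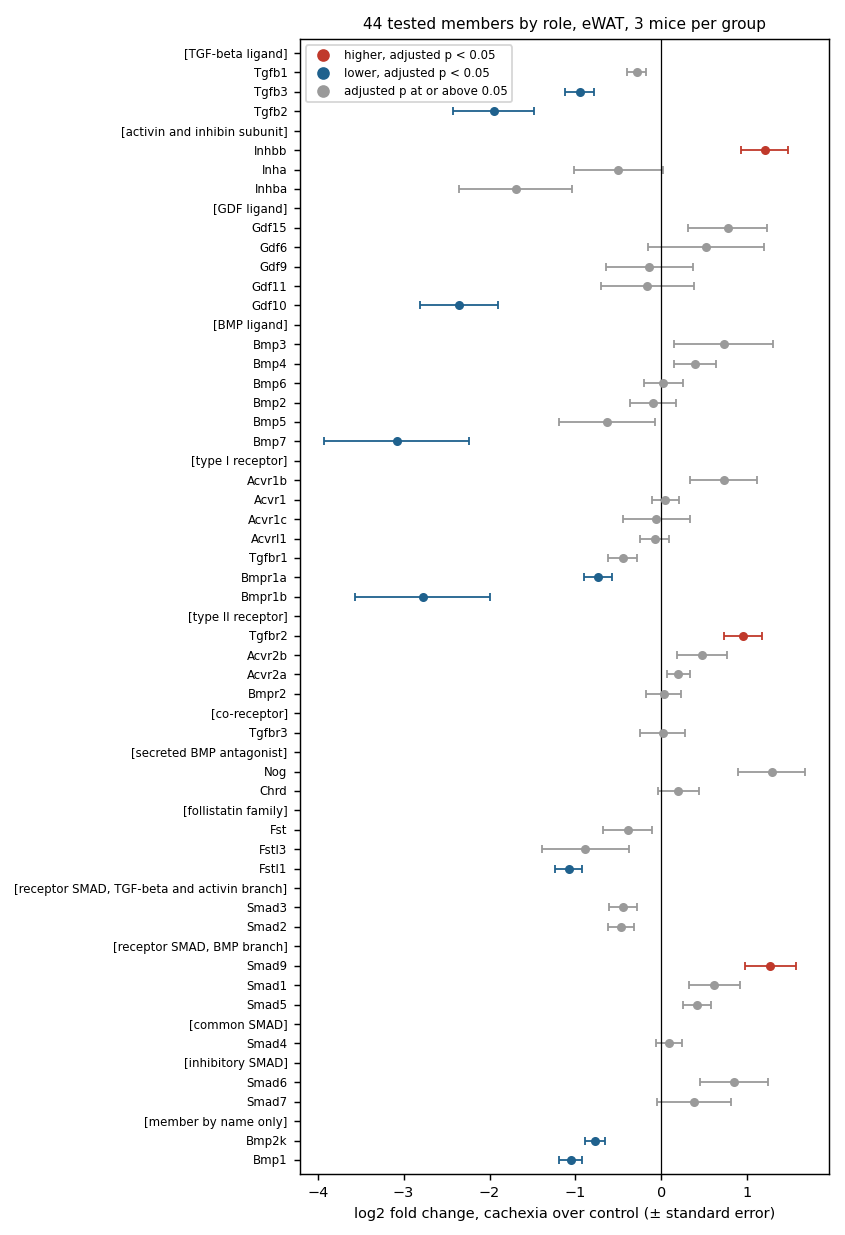
Log2 fold change of cachectic over control mice for 44 of the members tested, grouped by role. Points are the edgeR estimates, bars are 1 standard error, and color marks the genes with an adjusted p-value under 0.05. Called genes sit on both sides of 0, with Bmp7 (-3.08) and Bmpr1b (-2.78) farthest to the left and Smad9 (1.27) farthest to the right among those drawn, next to Nog (1.28), which was not called.

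With 1 mouse left out, between 4 and 10 members were called, and the fewest, Bmp1, Bmp2k, Bmpr1b and Fstl1, came without control 3, when calls over all genes also fell from 2821 to 828. Fstl1, Bmp1 and Bmp2k were called in all 16 other settings tried, and no called member changed sign in any of them. Bmp7 and Bmpr1b were not called with limma-voom or with limma on FPKM, and Bmpr1b was also not called with plain library totals or with protein-coding genes alone.

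The promoters of 5 called genes, 3 that rose and 2 that fell, are shown with the motifs through which SMADs are known to bind DNA. They are the 250 bases before the transcription start in RefSeq (GRCm38.p6), read 5′ to 3′ on the gene's strand. Capitals mark the SMAD box CAGAC and the GC-rich SMAD element GGCGCC, each searched on both strands.
Inhbb (chr1:119422249-119422498, minus strand): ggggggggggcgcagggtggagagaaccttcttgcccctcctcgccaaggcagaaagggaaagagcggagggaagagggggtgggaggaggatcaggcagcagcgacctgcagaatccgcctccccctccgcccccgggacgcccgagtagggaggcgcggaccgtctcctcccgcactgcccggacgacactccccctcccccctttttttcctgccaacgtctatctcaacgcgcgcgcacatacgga
Tgfbr2 (chr9:116175364-116175613, minus strand): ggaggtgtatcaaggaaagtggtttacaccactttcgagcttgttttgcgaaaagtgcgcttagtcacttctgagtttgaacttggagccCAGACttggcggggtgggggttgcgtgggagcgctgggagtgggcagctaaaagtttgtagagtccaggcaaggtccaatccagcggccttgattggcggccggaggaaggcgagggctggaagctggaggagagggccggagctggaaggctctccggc
Smad9 (chr3:54755332-54755581, plus strand): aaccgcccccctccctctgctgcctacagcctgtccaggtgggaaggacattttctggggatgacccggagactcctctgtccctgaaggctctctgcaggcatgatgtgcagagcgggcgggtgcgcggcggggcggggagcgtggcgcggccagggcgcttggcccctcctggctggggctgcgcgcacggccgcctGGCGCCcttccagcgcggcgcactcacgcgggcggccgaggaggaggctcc
Tgfb2 (chr1:186705990-186706239, minus strand): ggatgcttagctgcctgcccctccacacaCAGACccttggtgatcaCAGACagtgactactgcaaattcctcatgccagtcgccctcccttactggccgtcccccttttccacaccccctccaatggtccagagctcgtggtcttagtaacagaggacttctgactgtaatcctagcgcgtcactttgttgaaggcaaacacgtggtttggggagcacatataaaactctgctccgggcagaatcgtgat
Gdf10 (chr14:33923337-33923586, plus strand): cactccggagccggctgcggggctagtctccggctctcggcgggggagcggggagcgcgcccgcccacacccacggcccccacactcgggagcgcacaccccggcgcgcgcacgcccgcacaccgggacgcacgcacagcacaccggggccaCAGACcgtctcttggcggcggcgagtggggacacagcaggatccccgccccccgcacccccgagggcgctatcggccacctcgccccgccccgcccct
The window of Inhbb held neither motif. Tgfbr2 had CAGAC starting 160 bases before the start (-160), Gdf10 at -98, and Tgfb2 at -221 and -204. Smad9 had GGCGCC at -51, and the Tgfb2 window overlapped an exon of Gm29491 on the other strand. Among all 32851 promoter windows in the table, 42.2% held CAGAC and 9.59% held GGCGCC. The 43 members with an entry had 52 windows, of which 50% and 17.3% held these letters. Of the 9 called members with an entry, 4 had CAGAC and 3 had GGCGCC. A match describes the letters and does not show binding.

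For each of the 3 TGF-β ligand genes, every cachectic mouse lay below every control mouse, and 2 of the genes were called. Over all tested genes, 20.1% were lower without overlap and 17.6% were called. Tgfb1 is the isoform most studied in inflammation and fibrosis, and its CPM was 67.9, 59.1 and 67.6 in the controls and 52.8, 54.4 and 52.3 in the cachectic mice. The groups did not overlap, but the difference was small and was not called (log2 fold change -0.29 ± 0.11 SE, edgeR adjusted p = 0.120 after Benjamini-Hochberg adjustment). Tgfb2 (chromosome 1, 186622792 to 186705989) had 20.5, 8.77 and 9.63 CPM in controls and 5.42, 2.58 and 2.03 CPM in cachectic mice. Every cachectic mouse lay below every control, and control 1 stood above the others. The fold change was -1.95 ± 0.47 on the log2 scale (edgeR, Benjamini-Hochberg adjusted p = 0.0286), and it was not called without control 1 (-1.45), control 3 (-2.13), cachexia 2 (-1.79) or cachexia 3 (-1.69). Tgfb3 (chromosome 12, 86056745 to 86079041) had 44.8, 31.8 and 42.3 CPM in controls against 20.5, 18.2 and 22.8 CPM, or 39.6 ± 6.87 (SD, n = 3) against 20.5 ± 2.29 (SD, n = 3). Here too the groups were apart, by a log2 fold change of -0.95 ± 0.17 (edgeR, Benjamini-Hochberg adjusted p = 0.0108), lost only without control 3 (adjusted p = 0.0562). Tgfb3 overlaps Ttll5, Gm37804 and Gm48008 on the other strand, and whether counting used strand is not given in the sources used here.

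Per gene length, in FPKM (fragments scaled by gene length and library size), the 3 TGF-β genes summed to 22.3 to 29.9 in controls and 16.2 to 17.1 in cachectic mice. Tgfb1 held 44.5% to 51.8% of that sum in controls and 59.4% to 64.9% in cachectic mice. Tgfb2 made up the smallest part in every mouse, at most 11.7%. The mix of isoforms therefore leaned more on Tgfb1 in cachectic mice, although its own level was no higher there.

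Of the 3 activin and inhibin subunit genes tested, only Inhbb was called, or 33.3% against 17.6% of all tested genes. Inhbb (chromosome 1, 119415465 to 119422248) encodes the βB subunit that forms activin B and inhibin B, and it was the most abundant activin subunit, with a mean of 15.9 FPKM over the 6 mice. Its CPM was 30.4, 52.6 and 42.3 in controls and 89.3, 68.4 and 130.5 in cachectic mice. The lowest cachectic mouse was above the highest control, and cachexia 3 was the highest of all. The rise was 2.30-fold (log2 fold change 1.20 ± 0.28, edgeR with Benjamini-Hochberg, adjusted p = 0.0246). It was not called without control 1, control 3, cachexia 1 or cachexia 3, with log2 fold changes of 1.01, 1.21, 1.25 and 0.92.

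Inhba, the βA subunit of activin A, showed 11.8, 2.35 and 2.72 CPM in controls and 1.22, 1.78 and 2.23 CPM in cachectic mice. Its log2 fold change of -1.69 ± 0.66 was not called (edgeR, Benjamini-Hochberg adjusted p = 0.113), and without control 1 it was -0.54. Inha, the α subunit found in inhibins, had between 0.745 and 2.21 CPM in controls and between 0.614 and 1.38 CPM in cachectic mice, with overlapping values. Inhbc and Inhbe, subunits known mainly from liver, had at most 2 counts in any mouse and were not tested.

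Among the GDFs, Gdf10 was by far the most abundant and was the only one called. That is 20% of the 5 tested, near the 17.6% of all tested genes. Gdf10 (chromosome 14, 33923587 to 33937983), a ligand close to BMP3, had a mean of 17.1 FPKM, more than any other ligand in the set. It was counted at 210.2, 93.8 and 149 CPM in controls and at 46.1, 28.9 and 13.4 CPM in cachectic mice. No cachectic mouse reached the lowest control, and the mean fell 5.12-fold (log2 fold change -2.36 ± 0.46, edgeR, Benjamini-Hochberg adjusted p = 0.0139). This was lost without control 3, narrowly (adjusted p = 0.05005). Gdf15, a stress-induced cytokine that suppresses appetite through a receptor outside this family, was low, at 3.01, 1.03 and 1.87 CPM in controls and 4.32, 2.21 and 3.61 CPM in cachectic mice. The values overlapped, and the log2 fold change of 0.77 was not called (edgeR, Benjamini-Hochberg adjusted p = 0.279). Gdf11 (-0.16), Gdf9 (-0.14) and Gdf6 (0.53) were also not called and had at most 4.61 CPM in any mouse. Mstn, which encodes myostatin, the muscle growth inhibitor, had 0, 1 and 3 counts in controls and 0 in all cachectic mice. Gdf2, Gdf3, Gdf5 and Gdf7 had at most 18 counts in any mouse, and Gdf1, which shares exons with Cers1, had 0 in all 6.

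Bmp7, which promotes brown adipocyte differentiation, was the only BMP ligand called. That is 16.7% of the 6 tested, near the 17.6% of all tested genes. Bmp7 (chromosome 2, 172868012 to 172940321) had 11.7, 1.605 and 3.23 CPM in controls and 0.292, 0.491 and 1.18 CPM in cachectic mice. The groups were separate but close at the edges, and control 1 was well above the other controls. The log2 fold change was -3.08 ± 0.84 (edgeR, Benjamini-Hochberg adjusted p = 0.0421). Among the fits without 1 mouse, it was called only without control 2 (-3.52), and was -1.89 without control 1, -3.35 without control 3, -2.72 without cachexia 1, -2.91 without cachexia 2 and -3.80 without cachexia 3.

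Bmp6, which controls iron uptake through hepcidin in the liver, was the most abundant BMP ligand, with a mean of 12.5 FPKM. Its CPM was 50.4, 53.1 and 43.7 in controls and 55.1, 32.9 and 61.6 in cachectic mice, so the cachectic mice spread on both sides of the controls (log2 fold change 0.02 ± 0.23, edgeR, Benjamini-Hochberg adjusted p = 0.955, and -0.02 with limma-voom). Exons of Bmp6 overlap those of Txndc5 on the other strand. Bmp4, which commits progenitors to the adipocyte lineage, had 17.2, 11.6 and 10.8 CPM in controls and 19.6, 13.1 and 19.1 CPM in cachectic mice, with a log2 fold change of 0.39 and no call (edgeR, Benjamini-Hochberg adjusted p = 0.294). Bmp2 (-0.10), Bmp3 (0.72, and 1.42 without control 2) and Bmp5 (-0.63) were not called either, and the values of each overlapped between the groups. Bmp8a and Bmp8b, near-identical copies that can share reads, had at most 7 counts, Bmp15 at most 8, and Bmp10 had 0 in every mouse.

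**Figure D2:**
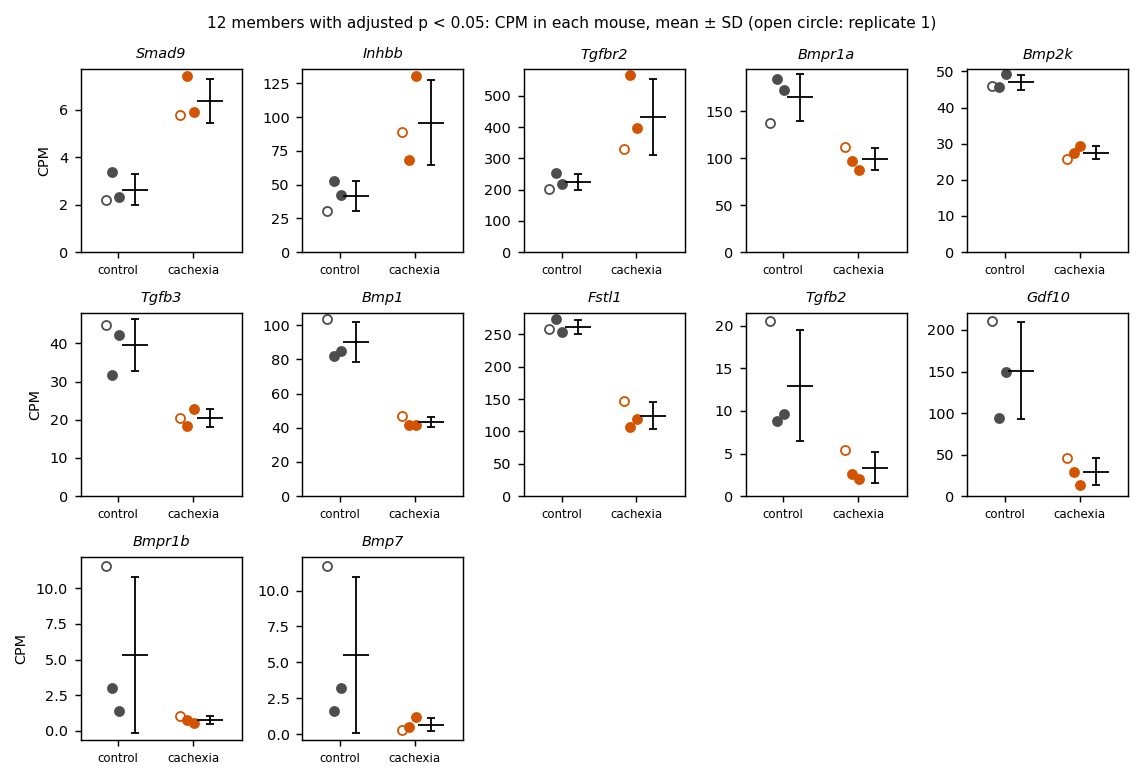
CPM of 12 called members in each mouse, with its own axis for each gene. Points are mice, open for replicate 1, and bars are mean and SD (n = 3 per group). For Bmpr1b the SD bar of the controls runs below 0 because control 1 (11.6 CPM) stands far above the other controls. In every panel the points of the 2 groups are apart.

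All 12 receptor genes were expressed well enough to be tested, and 3 were called, 25% against 17.6% of all tested genes. The groups did not overlap in 33.3% of the receptors, against 40.5% of all tested genes. Tgfbr2 (chromosome 9, 116084293 to 116175360), the type II receptor of TGF-βs, rose. It had 202, 252 and 217 CPM in controls and 330.0, 566 and 398 CPM in cachectic mice, with cachexia 2 highest and no overlap. The change was 1.93-fold (log2 fold change 0.95 ± 0.22, edgeR, Benjamini-Hochberg adjusted p = 0.0261), and it was not called without control 1 (0.88), control 2 (1.04) or control 3 (0.92). Among the other type II receptors, Acvr2a (0.20), Acvr2b (0.48) and Bmpr2 (0.03) had overlapping values and no call. Acvr2a shares exon sequence with Orc4 on the other strand.

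Bmpr1a (chromosome 14, 34410734 to 34503341), the type I receptor ALK3 for BMP2 and BMP4, fell. Its CPM was 137, 184 and 173 in controls and 112, 97.2 and 87.9 in cachectic mice, all below the lowest control. The log2 fold change was -0.74 ± 0.16 (edgeR, Benjamini-Hochberg adjusted p = 0.0214), and it was not called without control 2 (-0.65), control 3 (-0.71), cachexia 2 (-0.72) or cachexia 3 (-0.65). Bmpr1b (chromosome 3, 141837136 to 142169425), the related receptor ALK6, was rare, with 11.6, 2.98 and 1.42 CPM in controls and 1.05, 0.737 and 0.524 CPM in cachectic mice. Control 1 again held most of the signal, and the other controls were close to the cachectic mice. Its log2 fold change of -2.78 ± 0.78 passed the threshold by little (edgeR, Benjamini-Hochberg adjusted p = 0.0467). Among the fits without 1 mouse, Bmpr1b was called only without control 3 (-3.23), and was -1.50 without control 1, -3.06 without control 2, -3.06 without cachexia 1, -2.74 without cachexia 2 and -2.57 without cachexia 3.

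Tgfbr1 (ALK5), the type I partner of Tgfbr2, had 55.0, 59.0 and 57.7 CPM in controls and 40.4, 51.5 and 33.7 CPM in cachectic mice. The values did not overlap, yet its log2 fold change of -0.45 ± 0.17 missed the threshold (edgeR, Benjamini-Hochberg adjusted p = 0.0980), and without cachexia 2 it passed (-0.62, adjusted p = 0.0339). Acvr1c (ALK7), the most abundant type I receptor with 25.6 FPKM, varied widely in both groups, with 135, 341 and 265 CPM in controls and 349, 211 and 152 CPM in cachectic mice (log2 fold change -0.06 ± 0.39, edgeR, Benjamini-Hochberg adjusted p = 0.933, and 0.01 with plain library totals). Acvr1b (ALK4), a receptor of activins, had 124 CPM in cachexia 3 and between 38.4 and 54.9 CPM in the other 5 mice, and was not called (0.73 ± 0.39, and 0.10 without cachexia 3). Acvr1 (0.05) and Acvrl1 (-0.08), the endothelial receptor ALK1, had overlapping values. The co-receptor Tgfbr3 (betaglycan) was the most abundant gene of the whole set at 43.2 FPKM, with 242, 316 and 301 CPM in controls and 262, 408 and 199 CPM in cachectic mice (log2 fold change 0.02 ± 0.26, edgeR, Benjamini-Hochberg adjusted p = 0.973, and -0.04 with limma-voom).

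The balance between receptors was read from FPKM, as a description without a test. Bmpr1a made up 25.5% to 26.9% of the summed type I receptor FPKM in controls and 15.5% to 19.7% in cachectic mice, while the sum itself overlapped (83.8 to 110.6 and 75.8 to 103.3). In the type II receptors, the sum rose from 37.8 to 48.3 FPKM in controls to 56.5 to 87.9 FPKM in cachectic mice, and Tgfbr2 went from 59.1% to 64.6% of it up to 69.9% to 76.7%. For each unit of Tgfbr1, there were 2.93 to 3.40 units of Tgfbr2 in controls and 6.52 to 9.43 in cachectic mice. Tgfbr2 is abundant in endothelial cells, whose markers were also higher in the cachectic mice, and the part of these cells was not tested.

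**Figure D3:**
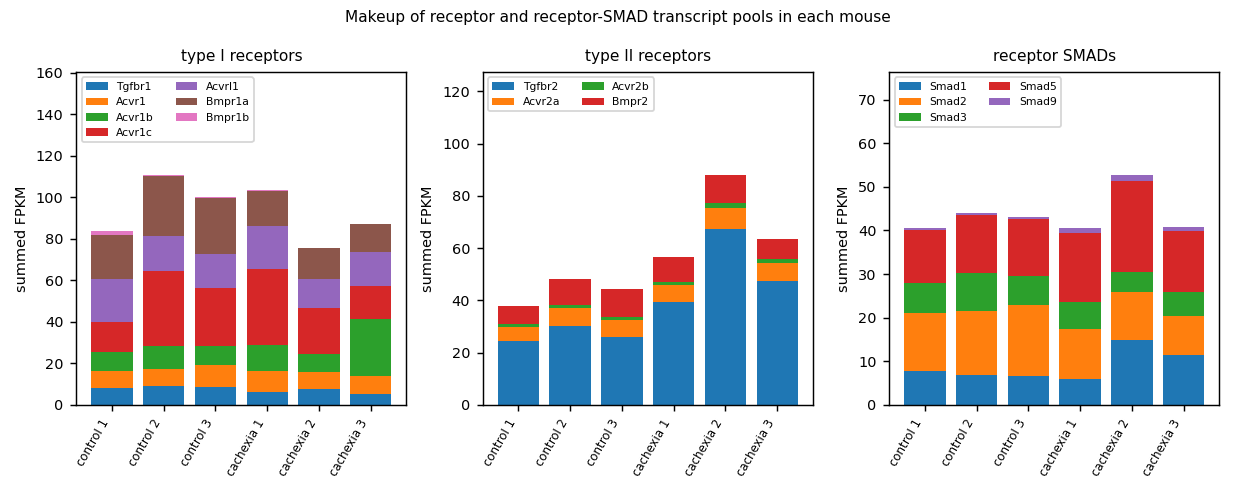
Summed FPKM of the type I receptors, the type II receptors and the receptor SMADs in each of the 6 mice, as stacked bars with a color for each gene. The type II bars are taller in every cachectic mouse (at least 56.5) than in any control (at most 48.3), the Tgfbr2 part of the type II receptors is at least 69.9% in cachectic mice and at most 64.6% in controls, and the Bmpr1a part of the type I receptors is at most 19.7% against at least 25.5%.

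Among the secreted BMP antagonists, Nog, encoding noggin, had 3.51, 5.96 and 5.67 CPM in controls and 8.46, 8.60 and 19.8 CPM in cachectic mice. Noggin values did not overlap, and the log2 fold change of 1.28 ± 0.39 narrowly missed the threshold (edgeR, Benjamini-Hochberg adjusted p = 0.0598). Chrd, encoding chordin, had overlapping values (log2 fold change 0.20), and it overlaps Thpo on the other strand.

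Grem1, encoding another secreted BMP antagonist, was not tested. It had 132 counts in control 1, 3 in control 2 and 14 in control 3, against 0, 0 and 3 in the cachectic mice, so it was seen mainly in 1 mouse.

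In the follistatin family, Fstl1 (chromosome 16, 37776873 to 37836514), a secreted glycoprotein made by mesenchymal cells, was the third most abundant member of the whole set at 38.7 FPKM. Fstl1 had 258, 274 and 253 CPM in controls and 147, 106 and 119.6 CPM in cachectic mice, or 262 ± 11.0 (SD, n = 3) against 124 ± 20.7 (SD, n = 3). The groups were far apart relative to their spread, a 2.11-fold fall (log2 fold change -1.08 ± 0.16, edgeR, Benjamini-Hochberg adjusted p = 0.00561). Fst, encoding follistatin, the classical activin inhibitor, had 21.8, 17.5 and 13.7 CPM in controls and 18.3, 13.1 and 8.92 CPM in cachectic mice, with overlap and no call (log2 fold change -0.39). Fstl3 had 4.42 to 5.72 CPM in controls and 0.860 to 3.93 CPM in cachectic mice, with no overlap and no call (log2 fold change -0.89 ± 0.50, edgeR, Benjamini-Hochberg adjusted p = 0.256). Fstl4 had 2 counts in 1 control, and Fstl5 had 0 in all 6 mice. Set side by side, the FPKM ratio of Inhbb to Fst was 1.50 to 3.34 in controls and 5.28 to 15.8 in cachectic mice, highest in cachexia 3.

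All 8 SMAD genes were tested, and Smad9 alone was called, 12.5% against 17.6% of all tested genes. Smad9 (chromosome 3, 54755582 to 54801257), a BMP-branch SMAD, rose from 2.21, 3.38 and 2.32 CPM in controls to 5.77, 7.43 and 5.90 CPM in cachectic mice. No values overlapped, although it stayed the least abundant SMAD at 0.822 FPKM. The change was 2.41-fold (log2 fold change 1.27 ± 0.29, edgeR, Benjamini-Hochberg adjusted p = 0.0242), and it was not called without control 3 (1.18), cachexia 1 (1.34) or cachexia 2 (1.15). Smad5, the most abundant of its branch, had 90.8, 99.96 and 97.6 CPM in controls and 119.6, 158 and 106 CPM in cachectic mice, without overlap (0.41 ± 0.17, edgeR, Benjamini-Hochberg adjusted p = 0.125). Smad1 had 42.3 to 49.0 CPM in controls and 37.3, 95.4 and 73.8 CPM in cachectic mice (0.62 ± 0.30). Without cachexia 1, the low one, Smad1 was called (0.91, edgeR, Benjamini-Hochberg adjusted p = 0.0195).

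The SMADs of the TGF-β and activin branch leaned the other way, without a call. Smad2 had 47.6, 53.3 and 58.4 CPM in controls and 42.2, 40.3 and 32.3 CPM in cachectic mice (log2 fold change -0.47 ± 0.15, edgeR, Benjamini-Hochberg adjusted p = 0.0630). Smad3 had 39.3, 48.3 and 37.3 CPM in controls and 35.1, 25.7 and 31.0 CPM in cachectic mice (-0.44 ± 0.17, edgeR, Benjamini-Hochberg adjusted p = 0.102). Values of both genes did not overlap between the groups. In FPKM, the ratio of Smad1, Smad5 and Smad9 summed to Smad2 and Smad3 summed was 0.878 to 0.999 in controls and 1.27, 2.37 and 1.85 in cachectic mice. The sum of all 5 hardly differed, at 40.6 to 44.1 FPKM in controls and 40.6 to 52.7 FPKM in cachectic mice.

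Smad4, the common partner and the most abundant SMAD at 20.4 FPKM, had 74.0 to 75.5 CPM in controls and 67.9 to 96.7 CPM in cachectic mice (log2 fold change 0.09 ± 0.15, edgeR, Benjamini-Hochberg adjusted p = 0.717). The inhibitory Smad6 had 22.7, 19.0 and 11.8 CPM in controls and 51.0, 17.6 and 27.9 CPM in cachectic mice (0.85 ± 0.39, edgeR, Benjamini-Hochberg adjusted p = 0.171). Smad7 had 20.6, 17.1 and 11.7 CPM in controls and 37.4, 12.04 and 14.8 CPM in cachectic mice (0.38 ± 0.43, edgeR, Benjamini-Hochberg adjusted p = 0.573). For both inhibitory SMADs, cachexia 1 was the highest mouse and the groups overlapped.

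The 2 genes that carry a BMP name without being BMPs both fell. Bmp1 (chromosome 14, 70474558 to 70520234) encodes the protease that trims procollagens and chordin. Its level was 104, 82.1 and 85.1 CPM in controls and 47.1, 41.5 and 41.9 CPM in cachectic mice, well apart (log2 fold change -1.06 ± 0.14, edgeR, Benjamini-Hochberg adjusted p = 0.00374, the lowest of the set). Bmp2k (chromosome 5, 96997689 to 97091867), a kinase first found as induced by BMP2, had 46.1, 45.6 and 49.4 CPM in controls and 25.7, 27.4 and 29.3 CPM in cachectic mice (-0.78 ± 0.12, edgeR, Benjamini-Hochberg adjusted p = 0.00632). Both groups of Bmp2k values were tight, and the gene shares exon sequence with Paqr3 on the other strand.

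Genes that act with the family but fall outside the name rule were taken from 4 lists with 74 genes, of which 63 were tested. Of these, 6 were higher and 10 lower, 25.4% called against 17.6% of all genes. The median log2 fold change was 0.00. Among 25 target genes, 1 rose and 4 fell, or 20% called, near the 17.6% of all genes. The other 20 had no call, and over the whole list 13 log2 fold changes were above 0 and 12 below. Examples without a call, picked after their values were seen, were Ctgf (0.55), Pmepa1 (0.38), Tgfbi (-0.33) and Acta2 (-0.81). Cdkn2b, a cell cycle inhibitor induced by TGF-β, fell from 28.2, 18.9 and 30.8 CPM to 5.48, 2.46 and 3.15 CPM (log2 fold change -2.81 ± 0.33, edgeR, Benjamini-Hochberg adjusted p = 0.00302). The matrix genes Col1a1, encoding a chain of type I collagen, and Fn1, encoding fibronectin, fell by 2.61 and 2.18 on the log2 scale (edgeR, Benjamini-Hochberg adjusted p = 0.00564 and 0.00621). Id4, a BMP target, also fell (-1.65 ± 0.31, edgeR, Benjamini-Hochberg adjusted p = 0.0128). Atoh8, a BMP target of endothelial cells and liver, rose from 13.3, 10.03 and 9.58 CPM to 36.3, 18.1 and 19.1 CPM (1.158 ± 0.29, edgeR, Benjamini-Hochberg adjusted p = 0.0334). Atoh8 was not called without control 2 (1.097), control 3 (1.07) or cachexia 1 (0.76).

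Id1, Id2 and Id3, usual readouts of the BMP branch, gave no common direction. Id1, the classical BMP readout, had 52.4, 49.1 and 43.6 CPM in controls and 178, 57.9 and 78.7 CPM in cachectic mice, with no overlap and a log2 fold change of 1.12 ± 0.38 that was not called (edgeR, Benjamini-Hochberg adjusted p = 0.0789). The log2 fold change was 0.50 without cachexia 1 (adjusted p = 0.115) and 1.41 without cachexia 2, where it was called (edgeR, Benjamini-Hochberg adjusted p = 0.0353). Id2 had 61.3, 25.0 and 26.6 CPM in controls and 17.7, 12.8 and 20.5 CPM in cachectic mice (-1.15 ± 0.36, edgeR, Benjamini-Hochberg adjusted p = 0.0660). Id3 overlapped between the groups (-0.59 ± 0.29), and without cachexia 1 it was called (-0.96, edgeR, Benjamini-Hochberg adjusted p = 0.0434).

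Latent TGF-β is held in the matrix by LTBPs and fibrillin and is released by integrins and thrombospondin. In this list 12 of 13 genes were tested, 2 rose and 3 fell, or 41.7% called against 17.6% of all tested genes. Thbs1, encoding thrombospondin 1, rose most, from 39.5, 168 and 73.5 CPM to 1459, 292 and 1201 CPM (log2 fold change 3.39 ± 0.71, edgeR, Benjamini-Hochberg adjusted p = 0.0184). Cachexia 2 was much lower than the other cachectic mice but still above every control, and without control 3 the gene was not called (3.24, adjusted p = 0.0806). With 1 mouse left out, the log2 fold change lay between 2.99 (without cachexia 1) and 4.12 (without control 2). Lrrc32, encoding GARP, which displays latent TGF-β on the cell surface, had 41.4, 46.5 and 42.2 CPM in controls and 102, 75.5 and 75.9 CPM in cachectic mice (0.96 ± 0.15, edgeR, Benjamini-Hochberg adjusted p = 0.00743). Fbn1, encoding fibrillin 1, fell from 203, 283 and 242 CPM to 94.5, 66.1 and 70.0 CPM (-1.66 ± 0.20, edgeR, Benjamini-Hochberg adjusted p = 0.00295). Ltbp3 (-0.78, adjusted p = 0.0217) and Ltbp1 (-0.58, adjusted p = 0.0295) also fell (edgeR, Benjamini-Hochberg). Without control 2 or 3 Ltbp3 was not called (-0.75 and -0.78), and Ltbp1 was called only when cachexia 1 was the mouse left out (-0.58, -0.54 and -0.61 without control 1, 2 or 3, -0.54 and -0.48 without cachexia 2 or 3).

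Of 21 further antagonists, co-receptors and binding proteins, 12 were tested, 3 rose and 3 fell. That is 50% called against 17.6% of all tested genes. Bmper, encoding a BMP-binding protein of the chordin family, fell from 115, 57.3 and 101 CPM to 16.7, 13.9 and 16.9 CPM (log2 fold change -2.52 ± 0.26, edgeR, Benjamini-Hochberg adjusted p = 0.00200). Amhr2, the receptor of anti-Müllerian hormone, fell 7.18-fold (-2.84 ± 0.43, edgeR, Benjamini-Hochberg adjusted p = 0.00613), from 4.41 to 8.13 CPM in controls to 0.553 to 1.34 CPM. Crim1, a transmembrane protein that binds BMPs, rose tightly from 94.1, 106 and 92.5 CPM to 189, 177 and 173 CPM (0.88 ± 0.13, edgeR, Benjamini-Hochberg adjusted p = 0.00514), though its exons overlap those of Fez2. Eng, encoding endoglin, an endothelial co-receptor, rose from 227, 204 and 191 CPM to 510.0, 316 and 314 CPM (0.87 ± 0.22, edgeR, Benjamini-Hochberg adjusted p = 0.0326). Endothelial marker sums were higher as well, and Eng was not called without control 1 (0.94), control 2 (0.86), control 3 (0.81) or cachexia 1 (0.60). Rgma (0.51, edgeR, Benjamini-Hochberg adjusted p = 0.0405) rose and Twsg1 (-0.50, adjusted p = 0.0495) fell. Neither kept its call when any 1 of the 6 mice was left out (0.40 to 0.57 for Rgma and -0.56 to -0.38 for Twsg1). None of the 14 tested SMAD partners and turnover genes, such as Ski, Smurf1, Smurf2 and Ppm1a, was called by edgeR. Only 2 of the 14 had an unadjusted edgeR p-value under 0.05, against 5498 of all 16003 genes tested. These were Ski (log2 fold change -0.61 ± 0.20) and Map3k7 (-0.39 ± 0.14), named here after their values were seen. In both, every cachectic mouse was below every control, and for Lemd3 (0.14) every cachectic mouse was above. The groups did not overlap in 21.4% of this list, against 40.5% of all tested genes.

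**Figure D4:**
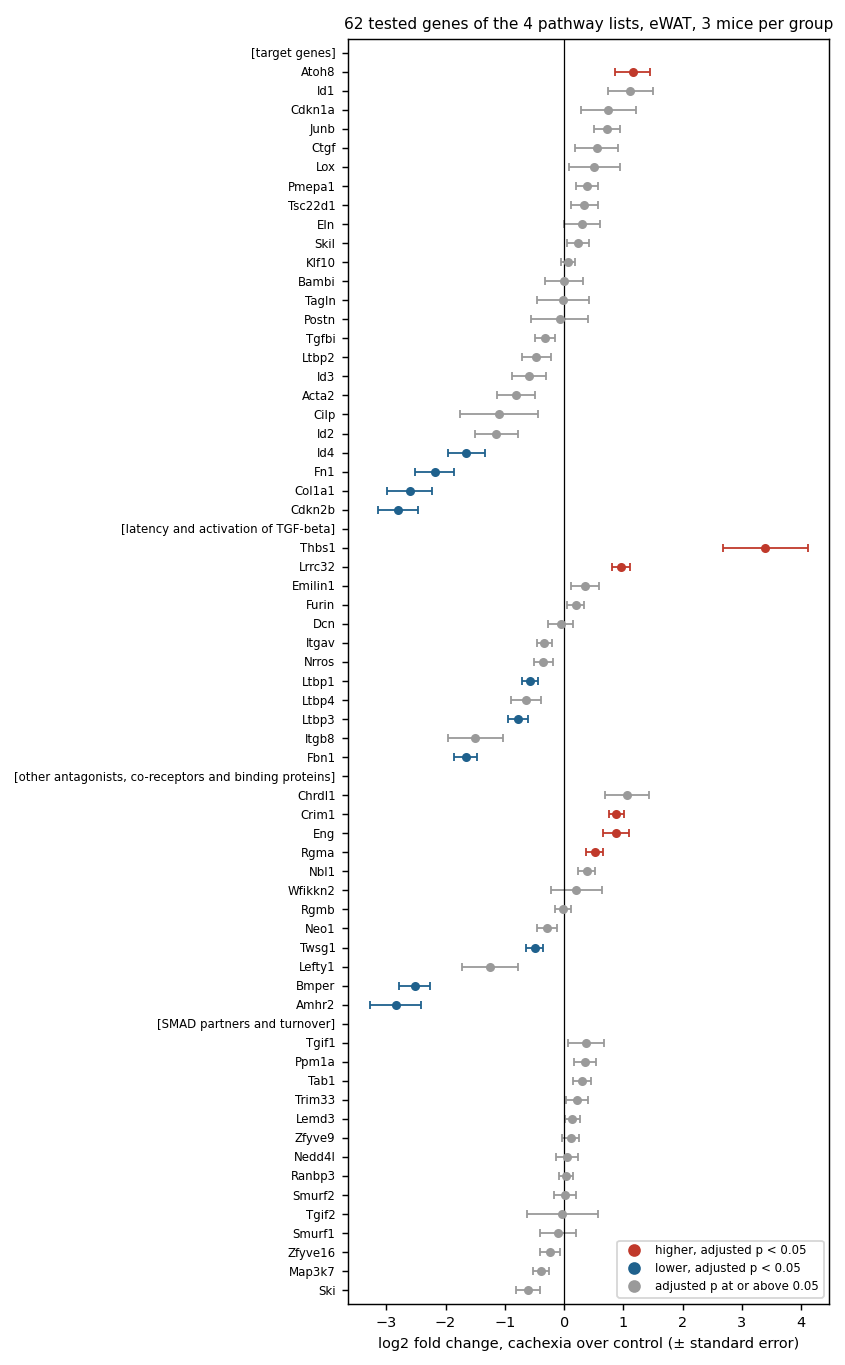
Log2 fold change of cachectic over control mice for 62 pathway genes tested outside the name rule, grouped by list. Points are the edgeR estimates, bars are 1 standard error, and color marks an adjusted p-value under 0.05. Thbs1 (3.39) stands farthest to the right and Amhr2 (-2.84) and Cdkn2b (-2.81) farthest to the left, and none of the SMAD partners is called, with Ski (-0.61) the farthest from 0 among them.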

How the data were processed

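RNA-seq of eWAT from 3 LLC-induced cachectic mice and 3 control mice was used, grouped by their labels. The authors filtered the reads, aligned them (Hisat2) and deposited raw counts per gene from featureCounts (1.5.0-p3 in the submitters' processing notes). The authors also deposited FPKM values, made from count and gene length. A table of the authors' own DESeq2 comparison (log2 fold changes, p-values) was not used, including its 8 columns of per-sample values and group means. The submitters' processing notes name mm9, but 99.8% of gene identifiers are in GENCODE M21 (GRCm38), and for 98.3% of the matched ones the coordinates agree. The coordinates of 59 of the 60 members are the same there, so coordinates are given as GRCm38.

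Tests on counts used edgeR 4.0.16 in R 4.3.3 (quasi-likelihood test without covariate after TMM and filterByExpr, Benjamini-Hochberg over 16003 genes, threshold 0.05). Library totals of 14928766 to 18855546 counts and a biological coefficient of variation of 0.264 set the precision. The standard error is the log2 fold change divided by the square root of F. P-values weigh the difference between the groups against the spread between these mice. Exact permutation tests used log2 CPM (prior count 0.5). FPKM served for levels between genes, and sums and ratios of FPKM were not tested. No pair of libraries had near-identical counts. Scripts were tested on simulated counts.

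The members, lists and rules were chosen with earlier results of these data known. Named in full were the called members, the most abundant member of each role by FPKM, uncalled members whose log2 fold change was at least 1 in size, up to 4 called genes per pathway list and direction, and Smad6, Smad7, Id1, Id2 and Id3. A few genes under these rules are left out of text and figures. Other members were given more briefly. Members given more fully outside this rule were chosen after their values were seen.

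Other settings were DESeq2 size factors in edgeR, plain library totals, no filter beyond 1 count, at least 10 counts in every sample, DESeq2 1.42.0, limma-voom, limma 3.58.1 on log2 FPKM (pseudocounts 1 and 0.1), a fit of protein-coding genes alone, a replicate block, and each mouse left out.

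Promoter sequences are from RefSeq (GRCm38.p6), where 17 members have no entry.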

Additional observations from a re-analysis of the deposited data

How the results depend on the processing

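The 12 called members reported here kept their direction in every setting in which they were tested, where 150 fits kept a call and 40 lost it. With DESeq2, 3884 genes were called and 5 members were higher and 11 lower (all 13, and Inhba, Nog and Smad2). With limma-voom and both limma fits on FPKM, Bmp7 and Bmpr1b were not called. Grem1 was called without a filter and without control 2, and Bmp7 and Bmpr1b were not tested with at least 10 counts in every sample. Replicate numbers did not pair the mice (correlations of same-numbered deviations 0.0099, -0.021 and 0.012), and with a replicate block the genes higher in cachexia were 913 instead of 1440, and 3 members were higher and 7 lower. Bmp7 and Bmpr1a were not called with the block.

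With 1 mouse left out, genes higher in cachexia were between 382 and 1197, genes lower in cachexia between 446 and 1142, members higher in cachexia between 0 and 3, members lower in cachexia between 4 and 8, pathway genes higher in cachexia between 2 and 7 and pathway genes lower in cachexia between 7 and 14. The lowest counts of genes and members came without control 3, and the cause was not tested.

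Log2 fold changes near 0 turned sign. Without cachexia 1, so did those of Smad7 (from 0.38 to -0.30) and Gdf6 (from 0.53 to -0.40), which were farther from 0. Bmp6 was -0.024 with limma-voom, -0.032 and -0.038 with limma on FPKM (pseudocount 1 and 0.1) and -0.020 with the block. Tgfbr3 was -0.044, -0.051, -0.054 and -0.037 in the same settings. Acvr1c was 0.013 with library totals. With 1 mouse left out, the ranges were -0.15 to 0.25 for Bmp6, -0.45 to 0.25 for Acvr1c, -0.31 to 0.23 for Tgfbr3, -0.070 to 0.20 for Smad4, -0.30 to 0.67 for Smad7, -0.80 to 0.25 for Gdf11, -0.40 to 0.97 for Gdf6, -0.42 to 0.45 for Gdf9, -0.36 to 0.090 for Bmp2, -0.052 to 0.19 for Acvr1, -0.23 to 0.040 for Acvrl1 and -0.14 to 0.15 for Bmpr2. With 3 mice per group, members at a few CPM, such as Bmp7 and Bmpr1b, rest on few counts.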
